A study of Mus musculus with 4 samples.

Results

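The aminoacyl-tRNA synthetase genes were followed in Dalton's lymphoma ascites (DLA) cells taken from control and irradiated mice. Members were all probe sets whose listed symbol had the form of a synthetase name, such as Aars or Yars2, together with Farsa, Farsb, Eprs and Tarsl2. The rule took 37 of the 23410 probe sets with a gene symbol, and of the 35556 in the table. These 37 probe sets belonged to 36 genes, of which 18 encode cytosolic enzymes, 16 encode mitochondrial enzymes, and Gars and Kars encode enzymes of both compartments.

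DLA cells, a transplantable mouse tumour known as a T-cell lymphoma, were grown in the peritoneal cavity of male Swiss albino mice aged 4 to 5 months. The irradiated group received 2 Gy of electron radiation over the whole body 8 days after transplantation, and cells were collected 48 h later. The control group carried the same tumour and was not irradiated. Each group had 2 arrays, named biological replicates by the labels. The labels do not tell whether an array stands for 1 mouse or several, so the tests measure the spread between these samples, which may be technical.

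Aminoacyl-tRNA synthetases join each amino acid to its transfer RNA, the step that fixes the genetic code, and so supply the ribosome with charged tRNA. Cytosol and mitochondrion mostly use separate enzymes, and the mitochondrial ones are made from nuclear genes and carry the number 2 in their symbols. Several cytosolic enzymes sit in a multisynthetase complex held together by the scaffold proteins Aimp1, Aimp2 and Eef1e1. Many cytosolic synthetase genes are known targets of ATF4, the transcription factor of the integrated stress response and of amino acid starvation. ATF4 binds composite C/EBP-ATF response elements in promoters.

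Promoter sequences of these genes were searched for TGATGNAA, the core of that element, on both strands from 250 bases before to 50 bases after the start site. RefSeq promoters (build GRCm38.p6) were held for 27 of the 36 genes. Cars, Hars, Hars2, Lars, Nars, Pars2, Rars, Vars and Wars were not among them. The core was found in 5 of the 27 genes, and these 5 are shown because they include 4 of the genes with the larger differences. Each runs 5′ to 3′ from base -120 to base 20 around the start site, which is base 1, and capitals mark the core on either strand.
Aars, chr8:111033722-111033861, plus strand: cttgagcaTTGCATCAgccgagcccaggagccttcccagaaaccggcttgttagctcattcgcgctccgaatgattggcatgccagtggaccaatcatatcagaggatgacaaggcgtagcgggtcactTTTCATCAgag
Gars, chr6:55037881-55038020, plus strand: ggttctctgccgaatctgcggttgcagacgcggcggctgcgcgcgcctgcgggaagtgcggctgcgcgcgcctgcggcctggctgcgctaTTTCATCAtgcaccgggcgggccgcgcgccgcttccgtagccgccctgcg
Iars, chr13:49682010-49682149, plus strand: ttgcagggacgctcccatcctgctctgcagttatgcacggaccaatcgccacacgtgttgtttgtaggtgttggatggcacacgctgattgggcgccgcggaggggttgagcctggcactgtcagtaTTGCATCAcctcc
Tars, chr15:11399639-11399778, minus strand: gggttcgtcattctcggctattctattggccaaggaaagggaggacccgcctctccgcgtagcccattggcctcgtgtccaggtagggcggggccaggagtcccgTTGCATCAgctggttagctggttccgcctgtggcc
Yars, chr4:129189783-129189922, plus strand: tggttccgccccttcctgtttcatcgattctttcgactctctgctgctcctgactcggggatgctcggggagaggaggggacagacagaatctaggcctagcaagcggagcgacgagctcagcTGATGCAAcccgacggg

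The mitochondrial partners of 3 of these genes, shown for comparison over the same window, held no such letters.
Aars2, chr17:45506712-45506851, plus strand: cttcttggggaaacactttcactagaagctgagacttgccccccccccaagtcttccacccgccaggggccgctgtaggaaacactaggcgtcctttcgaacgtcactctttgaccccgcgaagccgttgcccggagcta
Tars2, chr3:95754958-95755097, minus strand: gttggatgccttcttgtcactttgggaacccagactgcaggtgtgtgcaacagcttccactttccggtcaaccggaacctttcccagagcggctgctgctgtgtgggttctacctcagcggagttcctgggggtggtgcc
Yars2, chr16:16302845-16302984, plus strand: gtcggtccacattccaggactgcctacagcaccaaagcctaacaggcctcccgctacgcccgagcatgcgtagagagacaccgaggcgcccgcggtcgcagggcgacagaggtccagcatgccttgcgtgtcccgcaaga

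The core began at bases -112 and 10 in Aars, which held it 2 times, at -30 in Gars, 8 in Iars, -15 in Tars and 4 in Yars. It was present in 4 of 11 cytosolic genes with a promoter, in 1 of 2 genes serving both compartments and in 0 of 14 mitochondrial genes. Among all 32851 promoters of that length, 3.97% held it. That share is of single promoters, while the synthetases were counted as genes, which can have several promoters. A match is a description of letters and does not show that a factor binds there.

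The synthetase values lay lower on the irradiated arrays for most cytosolic genes, by up to 1.45-fold, and were mixed for mitochondrial genes, but no synthetase passed the adjusted test. Values are log2 probe set intensities made by robust multi-array average (RMA), and a difference is the irradiated mean minus the control mean. Each difference was tested with limma across all 23410 annotated probe sets, with Benjamini-Hochberg adjustment. An adjusted p under 0.05 was reached by 0 of 37 synthetase probe sets, against a background of 0.0256% of all annotated probe sets, and their adjusted p values ran from 0.378 to 0.985. In the same limma fit, 8 synthetase probe sets were lower and 0 were higher at an unadjusted p under 0.05, where the backgrounds were 4.64% lower and 4.82% higher. The 8 were Gars, Aars, Wars, Hars2, Sars, Yars, Tars and Pars2. With a minimum difference of 1.5-fold added, 0 remained in either direction, against backgrounds of 0.619% lower and 1.57% higher.

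By direction alone, 29 of the 37 probe sets had a lower mean on the irradiated arrays, against a background of 54.9%, with a median log2 difference of -0.155 against -0.025 over all annotated probe sets. Both irradiated arrays lay below both control arrays for 20 synthetase probe sets, against a background of 23.6%. Both lay above for 4, against 17.9%. The synthetases were bright, with 36 of 37 at or above the median brightness of the annotated probe sets. Among those brighter probe sets, the backgrounds were 6.13% for an unadjusted p under 0.05 with a lower value and 27.3% for both irradiated arrays below both controls. With 2 arrays a group, an exact two-sided permutation test of a single gene cannot give a p below 0.333, so none was used.

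The unadjusted count of 8 varied with the arrays used. It was 1 (Gars) without control replicate 1 and 2 (Aars and Gars) without control replicate 2, where the backgrounds of lower probe sets were 0.581% and 0.568%. The log2 differences of the 8 then ran from -0.56 to -0.245 and from -0.57 to -0.325, against -0.565 to -0.32 with all arrays. Leaving out irradiated replicate 1 gave 12 against a background of 16.6%, and leaving out irradiated replicate 2 gave 10 against 7.70%. With irradiated replicate 2 alone in its group, Aars2, Eprs, Kars, Mars2, Qars and Tarsl2 joined the count, and Yars and Pars2 left it. The irradiated arrays differed more from each other than the controls did, with a standard deviation of the difference between replicates of 0.428 against 0.168 over all annotated probe sets.

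**Figure D1:**
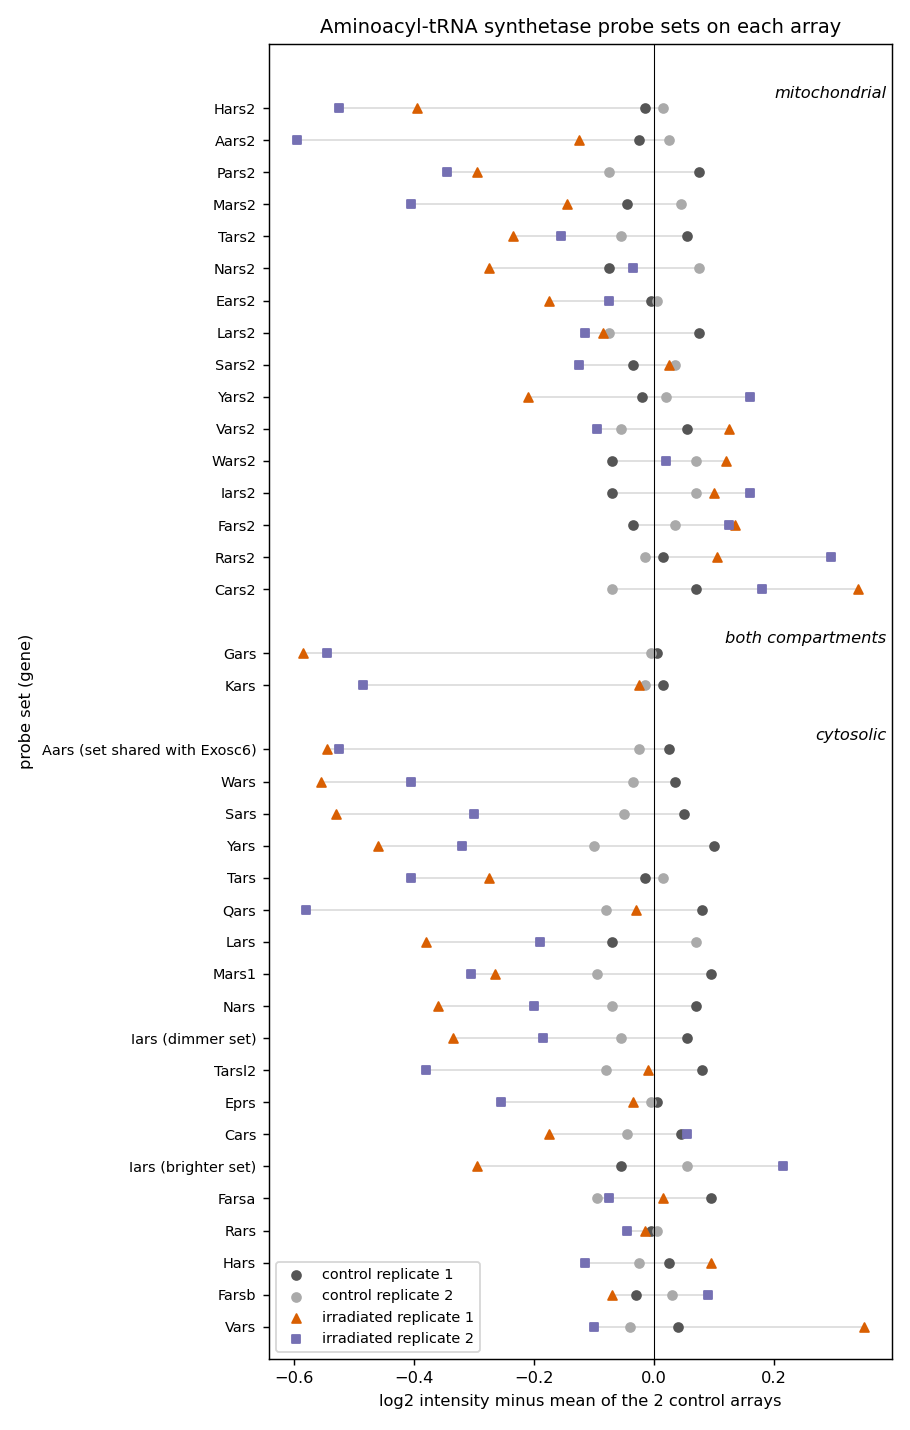
Log2 probe set intensity of every synthetase on each of the 4 arrays, drawn as the difference from the control mean of that probe set, with genes grouped by compartment and 1 point per array. Gars and Aars lie near -0.5 on both irradiated arrays, Qars, Kars and Aars2 lie low mainly on irradiated replicate 2, and Cars2 and Rars2 lie above their controls.

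Gars and Kars encode glycyl- and lysyl-tRNA synthetase, which are made for both compartments from the same gene. Gars measured 11.78 and 11.77 in control and 11.19 and 11.23 in irradiated cells. Both irradiated arrays lay far below both controls, and replicates of a group differed by at most 0.04. The difference was -0.565 ± 0.108 (SE, n = 2 a group), or 1.48-fold lower, with a limma adjusted p of 0.378. Kars, which is also part of the multisynthetase complex, measured 10.05 and 10.02 in control and 10.01 and 9.55 in irradiated cells. Only irradiated replicate 2 stood clearly below the controls, and the Kars difference of -0.255 ± 0.180 had a limma adjusted p of 0.660.

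Among the 18 cytosolic genes, 16 had a lower mean on the irradiated arrays and 5 reached an unadjusted p under 0.05. The background of lower means was 54.9%. For lower values at that threshold it was 4.64%, or 6.13% among the brighter probe sets. Aars, which charges tRNA with alanine, measured 10.38 and 10.33 in control and 9.81 and 9.83 in irradiated cells. The groups were well apart on all arrays, and the difference was -0.535 ± 0.109, or 1.45-fold lower, with a limma adjusted p of 0.405. That probe set also lists Exosc6, an RNA exosome subunit, so its signal cannot be given to Aars alone. Wars, the tryptophan enzyme, which interferon gamma is also known to induce, measured 10.54 and 10.47 in control and 9.95 and 10.10 in irradiated cells. The groups did not overlap, and the Wars difference was -0.480 ± 0.119, or 1.39-fold lower, with a limma adjusted p of 0.449.

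Sars, the serine enzyme, whose product also charges the selenocysteine tRNA with serine, measured 11.53 and 11.43 in control and 10.95 and 11.18 in irradiated cells. Irradiated replicate 1 was the lower of the pair, both were under the controls, and the difference was -0.415 ± 0.133 with a limma adjusted p of 0.496. Yars, for tyrosine, measured 9.94 and 9.74 in control and 9.38 and 9.52 in irradiated cells. The Yars controls were 0.20 apart, and the difference of -0.390 ± 0.132 exceeded that gap, with a limma adjusted p of 0.498. Tars, for threonine, measured 9.64 and 9.67 in control and 9.38 and 9.25 in irradiated cells. Its groups did not overlap, and the difference was -0.340 ± 0.115 with a limma adjusted p of 0.499. Tarsl2, a paralogue of Tars, measured 8.74 and 8.58 in control and 8.65 and 8.28 in irradiated cells, so that its groups overlapped and its difference was -0.195 ± 0.166.

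Mars1, for methionine, measured 9.86 and 9.67 in control and 9.50 and 9.46 in irradiated cells. Both irradiated arrays were lower, and the difference was -0.285 ± 0.123. Lars and Nars, for leucine and asparagine, had differences of -0.285 ± 0.130 and -0.280 ± 0.126, and their groups did not overlap. Qars, for glutamine, was lower mainly on irradiated replicate 2, where it measured 11.15 against 11.70 on the other irradiated array and 11.81 and 11.65 in control. Iars, for isoleucine, had 2 probe sets that did not give the same picture. The brighter measured 12.18 and 12.29 in control and 11.94 and 12.45 in irradiated cells, a difference of -0.04 ± 0.195 with overlapping groups. The dimmer measured 11.95 and 11.84 against 11.56 and 11.71, a difference of -0.26 ± 0.122 with no overlap.

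Several cytosolic enzymes showed almost no difference. Farsa and Farsb encode the catalytic and the other subunit of the phenylalanine enzyme. Farsa measured 9.23 and 9.04 in control and 9.15 and 9.06 in irradiated cells, a difference of -0.03 ± 0.126. Farsb measured 10.57 and 10.63 against 10.53 and 10.69, a difference of 0.01 ± 0.120, so both subunits overlapped between groups. Hars, for histidine, measured 9.98 and 9.93 in control and 10.05 and 9.84 in irradiated cells. Rars, for arginine, measured 12.18 and 12.19 against 12.17 and 12.14, and Cars, for cysteine, measured 9.08 and 8.99 against 8.86 and 9.09. The 95% intervals of the log2 difference were -0.33 to 0.31 for Hars, -0.31 to 0.25 for Rars and -0.40 to 0.28 for Cars, wide enough to include differences as large as that of Mars1.

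Vars, for valine, had the highest cytosolic difference. It measured 10.68 and 10.60 in control and 10.99 and 10.54 in irradiated cells. Irradiated replicate 1 was above and replicate 2 below both controls, and the difference was 0.125 ± 0.179 with a limma adjusted p of 0.830.

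The median log2 difference of the cytosolic genes was -0.2375, and their median deviations from the control mean were -0.22 on irradiated replicate 1 and -0.228 on replicate 2. For 10 of the 18, both irradiated arrays lay below both controls, and for 0 they lay above. The backgrounds were 23.6% below and 17.9% above, and 27.3% below among the brighter probe sets.

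The 11 cytosolic genes known as ATF4 targets had a median difference of -0.285 and all 11 had lower means. Of these, 5 reached an unadjusted p under 0.05 and 9 had groups that did not overlap, against backgrounds of 4.64% and 23.6% lower. The other 7 cytosolic genes (Farsa, Farsb, Hars, Qars, Rars, Tarsl2 and Vars) had a median of -0.03, with 5 lower means, 0 at an unadjusted p under 0.05 and 1 without overlap. Their median was -0.10 without irradiated replicate 1 and, with other arrays left out, as near 0 as -0.01. The grouping came from textbook knowledge of ATF4 targets and was chosen with these values known, so the contrast is a description and was not tested.

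**Figure D2:**
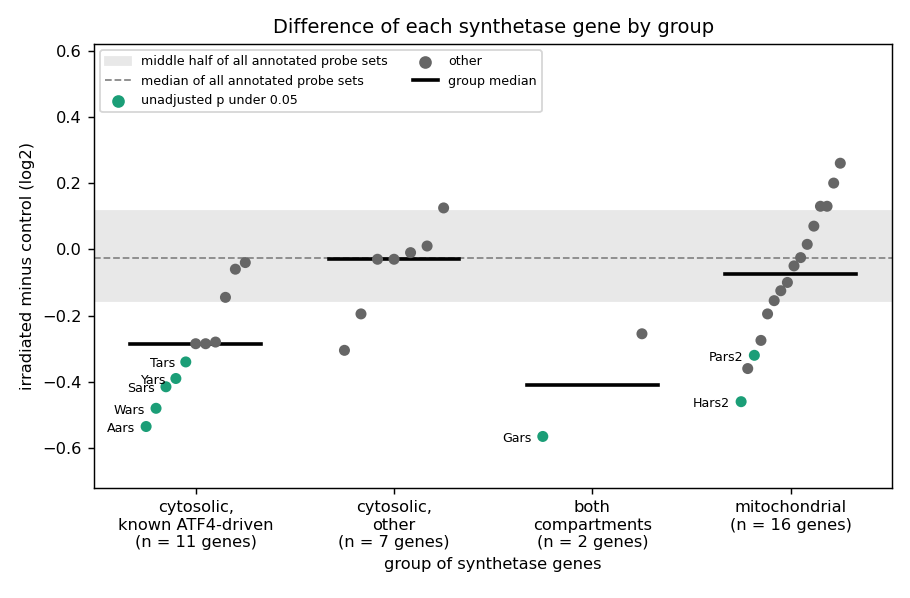
Log2 difference (irradiated minus control) of each synthetase gene, 1 point a gene, in 4 groups, with the group median as a black bar. The dashed line is the median of all annotated probe sets (-0.025), and the grey band is the range between their quartiles, from -0.155 to 0.115. The median is -0.285 for the 11 cytosolic known ATF4 targets, -0.03 for the other 7 cytosolic genes and -0.075 for the 16 mitochondrial genes.

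The 5 genes with the element core in their promoter were Gars, Aars, Yars, Tars and Iars. Their differences ran from -0.565 to -0.04 with a median of -0.39. The 22 genes without it had a median of -0.1125 and ran from -0.415 to 0.26. These 22 included all 14 mitochondrial genes with a promoter, so the 2 sets also differed in compartment. The cytosolic genes without the core ran from -0.415 for Sars to 0.01 for Farsb. The gap between the medians was not tested. Iars, at -0.04 by its brighter probe set, held the core, while Sars, at -0.415, did not hold it in this window. Of the other motifs searched, CACGTG was in 5 of the 27 synthetase genes with a promoter, against 7.15% of all single promoters. CCGGAAGT was in 3 against 3.89%, and the NRF1 motif in 0 against 0.971%. The median difference of the 5 genes with CACGTG was -0.125.

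**Figure D3:**
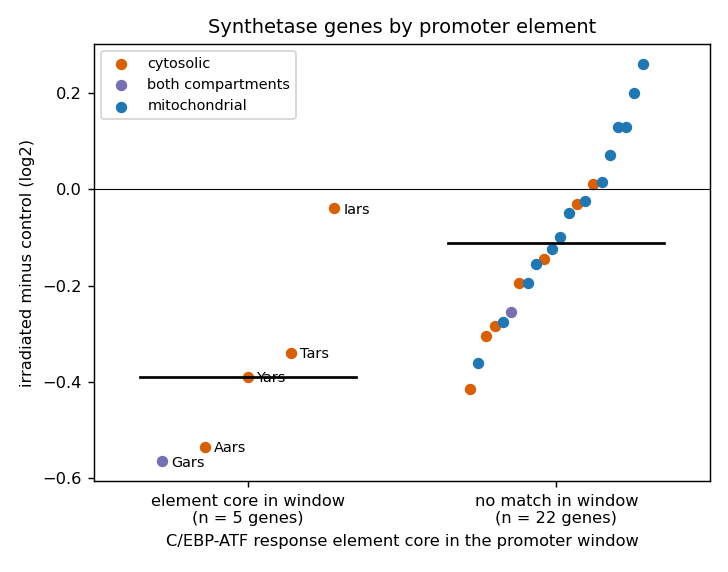
Log2 difference (irradiated minus control) of the 27 synthetase genes with a promoter sequence, 1 point a gene, with and without TGATGNAA, bars marking medians. The 5 genes with the core have a median of -0.39, and the 22 without it have a median of -0.1125 and overlap them. All 14 mitochondrial genes are among the 22.

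Among the multisynthetase complex genes Eprs, Iars, Lars, Mars1, Qars, Rars and Kars, all 7 measured had lower means, with a median of -0.255. Of these 7, 0 reached an unadjusted p under 0.05. Their median deviation from the control mean was -0.035 on irradiated replicate 1 and -0.255 on replicate 2. The replicates therefore did not show the same size, and Qars and Kars were low on replicate 2 mainly. Eprs, the fused glutamate and proline enzyme, measured 10.44 and 10.43 in control and 10.40 and 10.18 in irradiated cells, a difference of -0.145 ± 0.128. The 12 cytosolic genes outside the complex had a median of -0.2375, and 5 reached an unadjusted p under 0.05, against a background of 4.64% lower. The scaffold genes Aimp1, Aimp2 and Eef1e1 had differences of -0.19, -0.195 and -0.03, and 0 of 3 reached an unadjusted p under 0.05.

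The mitochondrial genes were mixed, with 10 of 16 lower, against a background of 54.9%, and a median log2 difference of -0.075. At an unadjusted p under 0.05, 2 were lower and 0 higher, against 4.64% and 4.82%. Hars2, the mitochondrial histidine enzyme, measured 8.80 and 8.83 in control and 8.42 and 8.29 in irradiated cells. Both irradiated arrays were clearly below the controls, and the difference was -0.460 ± 0.115, or 1.38-fold lower, with a limma adjusted p of 0.449. Pars2, for proline, measured 6.74 and 6.59 in control and 6.37 and 6.32 in irradiated cells. It was the only synthetase probe set under the median brightness of annotated probe sets. Its groups did not overlap, and the difference was -0.320 ± 0.118 with a limma adjusted p of 0.511.

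Aars2, the alanine enzyme, measured 7.30 and 7.35 in control and 7.20 and 6.73 in irradiated cells. Irradiated replicate 2 made most of its difference of -0.360 ± 0.183. Mars2, for methionine, measured 8.87 and 8.96 against 8.77 and 8.51, and its difference was -0.275 ± 0.138 with no overlap. Tars2, for threonine, was lower by a smaller amount on both irradiated arrays, at -0.195 ± 0.115.

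Cars2, for cysteine, lay at the other end. It measured 7.46 and 7.32 in control and 7.73 and 7.57 in irradiated cells, a difference of 0.260 ± 0.126 with no overlap and a limma adjusted p of 0.576. Rars2, for arginine, measured 8.41 and 8.38 against 8.50 and 8.69, a difference of 0.200 ± 0.123 with no overlap. Fars2 and Iars2, for phenylalanine and isoleucine, each had a difference of 0.13 and no overlap. These 4 mitochondrial genes were the 4 synthetases with both irradiated arrays above both controls, while 7 mitochondrial genes had both below. Over all annotated probe sets the shares were 17.9% above and 23.6% below. The other mitochondrial genes (Nars2, Ears2, Lars2, Sars2, Yars2, Vars2 and Wars2) ran from -0.155 to 0.07.

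The difference of the medians, cytosolic minus mitochondrial, was -0.1625, and it was -0.10 without control replicate 1. Between single arrays of a group, this measure had a pooled standard deviation of 0.0567, from 2 arrays a group. That value is not the error of the difference. The difference was not tested, since the members were chosen with earlier results known. The cytosolic genes were also brighter, with a median log2 intensity of 10.31 against 8.34 for the mitochondrial genes. The part of brightness in the difference was not tested. Over 13 amino acids with an enzyme of each compartment, the cytosolic difference was the more negative in 11. The exceptions were histidine and valine, and the methionine gap was only -0.01. For alanine, isoleucine, methionine and valine, the irradiated replicates went opposite ways. Their log2 ratios of cytosolic to mitochondrial enzyme deviated from the control mean by -0.42, -0.395, -0.12 and 0.225 on replicate 1. On replicate 2 these deviations were 0.07, 0.055, 0.10 and -0.005. The isoleucine pair used the brighter Iars probe set, at -0.04, while the dimmer was at -0.26. Both enzymes were lower in 8 pairs, and in 4 the cytosolic was lower and the mitochondrial higher. The largest gap was that of Wars and Wars2, at -0.55. The log2 ratio of Wars to Wars2, as a deviation from its control mean, was 0.105 and -0.105 on the controls and -0.675 and -0.425 on the irradiated arrays, with no overlap. The corresponding gaps were -0.365 for serine, -0.365 for tyrosine, -0.32 for cysteine and -0.23 for arginine. In 5 pairs the ratio was lower on both irradiated arrays than on both controls, and in 1 it was higher. For single probe sets the backgrounds were 23.6% lower and 17.9% higher, and no share was computed for ratios of other genes.

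The 1 pair with a higher ratio was histidine. Hars and Hars2 are neighbouring genes, and their differences were -0.01 and -0.46. The log2 ratio of Hars to Hars2 deviated by 0.04 and -0.04 on the controls and by 0.49 and 0.41 on the irradiated arrays.

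**Figure D4:**
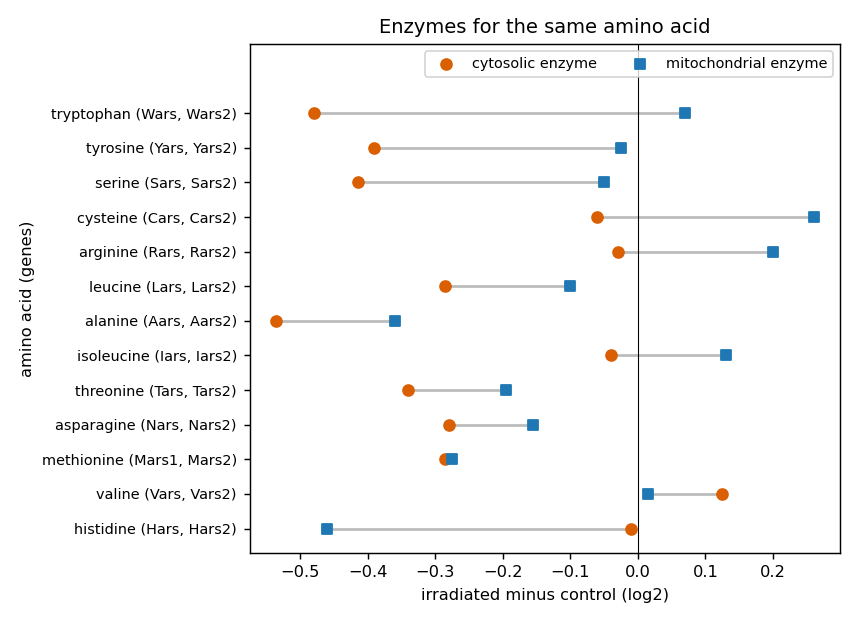
Log2 difference (irradiated minus control) of the cytosolic (circles) and mitochondrial (squares) enzyme for each of 13 amino acids, joined by a line. The cytosolic enzyme is further left in 11 amino acids, and histidine shows the reverse, with Hars at -0.01 and Hars2 at -0.46.

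Synthetases fall into class I and class II by the fold of the catalytic domain. The 17 class II genes had a median of -0.255, and 15 had lower means, with 6 at an unadjusted p under 0.05. The 18 class I genes had a median of -0.05, and 12 had lower means, with 2, Wars and Yars, at an unadjusted p under 0.05. For lower values at that threshold the background was 4.64%, and for lower means it was 54.9%. Eprs, the fused enzyme, was counted in neither class. Among mitochondrial genes the medians were -0.195 for 7 class II genes and 0.015 for 9 class I genes. Cytosolic medians were in the other order, at -0.2375 for 8 class II genes and -0.285 for 9 class I genes.

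Genes that make and use the substrates of the synthetases were described by lists. RNA polymerase III transcribes tRNA genes, and of its 22 measured subunits and factors 18 had lower means, against a background of 54.9%. An unadjusted p under 0.05 was reached by 6 in the lower direction and 0 in the higher, against 4.64% and 4.82%. The median of that list was -0.225. The list also holds Maf1, a repressor of the polymerase, which differed by 0.125 with both irradiated arrays above both controls. Polr3g, a subunit, measured 9.16 and 9.20 in control and 8.69 and 8.50 in irradiated cells, a difference of -0.585 with a limma adjusted p of 0.421. Crcp, another subunit, had a difference of -0.415. The count of 6 became 12 without irradiated replicate 1, where the background was 16.6%, 1 without control replicate 1 and 0 without control replicate 2.

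Of 24 genes of tRNA maturation and export, 19 had lower means and the median was -0.2175. At an unadjusted p under 0.05, 5 were lower and 1, Pop5, was higher, against backgrounds of 4.64% and 4.82%. Prorp, the mitochondrial RNase P nuclease, measured 10.52 and 10.39 in control and 10.08 and 9.78 in irradiated cells, a difference of -0.525 with a limma adjusted p of 0.480. Xpot, the nuclear exporter of tRNA, measured 9.19 and 9.21 against 8.88 and 8.84, a difference of -0.34. The groups did not overlap in either. The count of 5 was 8 without irradiated replicate 1, against the same background of 16.6%, 2 without irradiated replicate 2 and 0 without either control.

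The 7 genes of the cytosolic elongation factor list all had lower means, with a median of -0.175, and 0 reached an unadjusted p under 0.05. That list also holds Eef2k, the kinase that inhibits Eef2 and not itself an elongation factor, at -0.175. Eef2, the translocase, differed by -0.325 and Eef1b2, an exchange factor, by -0.36. The 6 mitochondrial initiation and elongation factors had a median of 0.0225, with Mtif3 at -0.27 and Tufm at 0.245, and again 0 reached an unadjusted p under 0.05. Editing factors (4 genes) had a median of -0.13, and the genes for mitochondrial glutaminyl and formylmethionyl tRNA (4 genes) had -0.1025, with none past an unadjusted p of 0.05. In the selenocysteine list of 6 genes the median was 0.0025, and Secisbp2, the factor that binds the selenocysteine insertion element, differed by -0.51 with a limma adjusted p of 0.445.

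Within the integrated stress response list, 26 genes were measured, with a median of -0.10. At an unadjusted p under 0.05, 7 were lower (Mthfd2, Trib3, Psat1, Asns, Atf4, Atf5 and Cebpg) and 1, Atf3, was higher. The backgrounds were 4.64% lower and 4.82% higher. Atf4 itself measured 9.90 and 9.90 in control and 9.51 and 9.57 in irradiated cells, a difference of -0.36 with a limma adjusted p of 0.496. Mthfd2, a mitochondrial folate enzyme, measured 10.27 and 10.16 against 9.49 and 9.54, a difference of -0.70 with a limma adjusted p of 0.341. Both Atf4 and Mthfd2 were low on both irradiated arrays. Asns, asparagine synthetase, measured 11.74 and 11.82 against 10.80 and 11.37. Not all genes of that list went the same way. Ddit3 measured 8.00 and 7.99 in control and 7.70 and 9.16 in irradiated cells, so the irradiated arrays lay on either side of the controls. Without irradiated replicate 1 the counts were 9 lower and 7 higher, where the backgrounds were 16.6% and 14.2%. Without irradiated replicate 2 they were 11 lower and 2 higher, against 7.70% and 7.24%. They were 1 and 0 without control replicate 1, and 2 and 0 without control replicate 2.

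Wars was set beside the interferon gamma list. Of its 12 measured genes, 6 had higher and 6 had lower means. At an unadjusted p under 0.05, 3 were higher and 0 lower. The higher count was 0 without control replicate 1 and 1 without control replicate 2, against 4.82% with all arrays and 1.03% and 1.06% in these settings. Without irradiated replicate 1, 3 were higher and 3 lower, against backgrounds of 14.2% and 16.6%, and the list median was -0.055 in place of 0.13. Cxcl10, a chemokine, measured 6.64 and 6.58 in control and 7.22 and 6.99 in irradiated cells. Irf1, a transcription factor of that response, measured 8.99 and 8.96 against 9.51 and 9.34. These had differences of 0.495 and 0.45 with limma adjusted p values of 0.456 and 0.458, while Wars was lower. Irf8, another factor of that response, measured 7.40 and 7.30 against 7.30 and 6.71, a difference of -0.345.

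**Figure D5:**
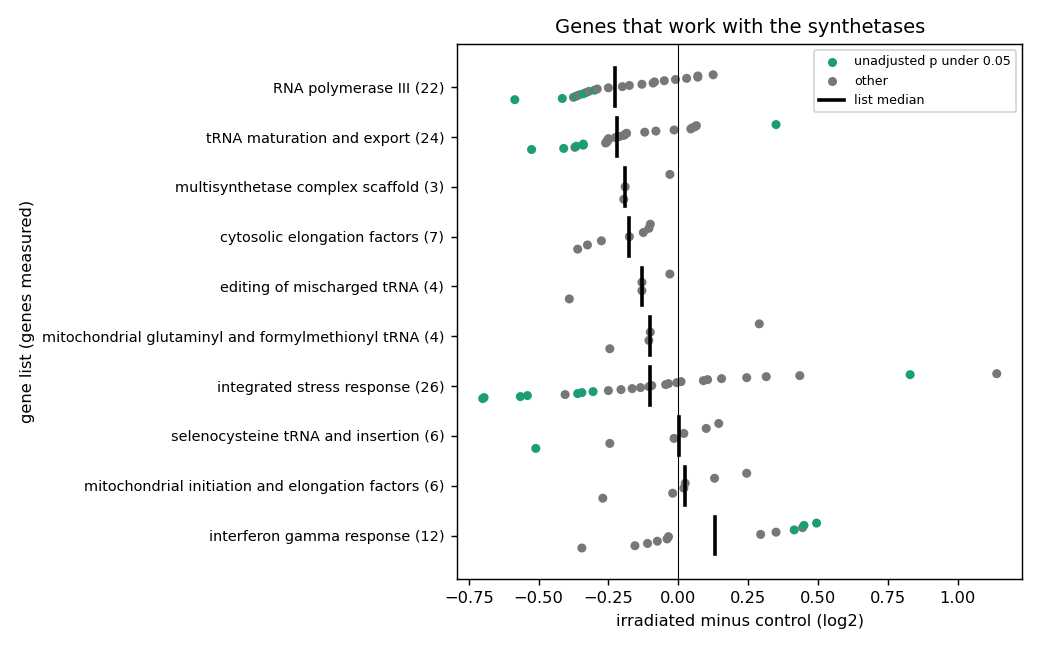
Log2 difference (irradiated minus control) of the genes of 10 lists, 1 point a gene, with the list median as a black bar and the number of genes measured in brackets. Medians are -0.225 for RNA polymerase III, -0.2175 for tRNA maturation and export, -0.10 for the integrated stress response and 0.13 for the interferon gamma list.

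The cell label and the makeup of the samples were checked with marker lists. Of 13 T-cell markers measured, 12 lay below the median brightness of annotated probe sets, among them the defining genes Cd3g, Cd3e and Cd4 with means of 4.38, 6.19 and 5.39, and Lat lay above it, at 9.26 and 9.08 in control and 8.80 and 8.87 in irradiated cells. The simple epithelial keratins Krt8 and Krt18 measured 14.07 and 14.11, and 13.45 and 13.38, in control. Brightness of different probe sets does not rank expression, so these values do not settle the lineage, and the cells are called DLA cells by their label. The summed linear signal, from control to irradiated arrays, went from 1161 to 1249 down to 981 to 1056 for the T-cell markers. The bright Lat is the largest part of that sum. For the trophoblast and simple epithelial markers the sum went from 42301 to 42742 down to 27284 to 35329. The bright keratins dominate it. Of the 14 markers in that list, 3 were lower and 3 higher at an unadjusted p under 0.05, and Prl6a1 and Eomes, among the higher, differed by 2.785 and 0.365. The 4 globin probe sets went from 4982 to 5609 down to 283 to 285, and all 4 passed the adjusted limma test. Of the 4 other erythroid markers measured, Alas2 and Klf1 differed by -0.695 and -0.32, Epb42 by -0.01 and Slc4a1 by 0.195. For the 13 neutrophil markers the sum went from 1833 to 1988 up to 5635 to 6028, most of it from Ly6g on the irradiated arrays. In that list Ly6g was 8.69-fold higher with a limma adjusted p of 0.00831, while 7 markers were lower and 2 higher at an unadjusted p under 0.05. At that threshold the backgrounds were 4.64% lower and 4.82% higher. The pan-leukocyte sum went from 3672 to 4197 up to 4476 to 4832, and the bright Lcp1 dominates it. Of the 13 markers in that list, 9 had lower and 4 had higher means, with a median of -0.125. Lcp1 differed by 0.625 and Srgn by -1.505. The 12 macrophage markers had a median of 0.0425, with 1 lower and 2 higher at an unadjusted p under 0.05. The 8 B-cell markers had a median of -0.0325, with 0 lower and 0 higher. The part of these shifts in the synthetase values was not tested. In bulk samples, fewer cells of a type and less RNA per cell cannot be told apart.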

How the data were processed

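RNA (300 ng) from 2 control and 2 irradiated samples was labelled with biotin and hybridised to one-colour arrays, per the labels' protocols. The deposited table holds log2 intensities per probe set, which the authors computed with RMA, per the submitters' processing notes. RMA corrects the background, normalizes between arrays and summarises probes, so it hides shifts common to most genes. Version, build and annotation were not given in the sources used here. There were 35556 probe sets on 4 arrays, given to 2 decimals, with 0 unmapped columns. Array medians ran from 6.43 to 6.46. The number of arrays limits the precision, and no batch was recorded for them.

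Probe sets were named from the platform annotation. 21789 had 1 symbol, 1621 several and 12146 were not listed. RefSeq (GRCm38.p6) supplied current symbols for 23319 of the 23410 with a symbol. Of the synthetase probe sets, 36 listed 1 symbol and 1 listed several.

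Irradiated minus control was fitted by limma 3.58.1 in R 4.3.3 (lmFit, eBayes, two-sided) over all 23410 annotated probe sets, with Benjamini-Hochberg adjustment at 0.05 (residual degrees of freedom 2, prior 3.11). The second rule was a difference of at least 1.5-fold at an unadjusted p under 0.05. For medians each gene gave its brightest probe set by the mean of all arrays. Standard errors and 95% intervals are limma's. The fit was tested on simulated data. Same-numbered samples did not deviate together (correlation 0.0042), so the replicate numbers were not used to pair them.

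Members and lists were chosen with earlier results of these data known. Values on every array were given for members past either rule, for the 5 genes with the smallest p and the 2 with the largest difference in each direction in each compartment class, for the other subunit or paralogue of a gene and the cytosolic partner of a named mitochondrial enzyme, and for up to 2 genes of each pathway list. Other genes were named with their values in view. Alternatives were filters on dim probe sets, quantile normalization, median centring, a gene-level fit, every row of the table, eBayes with trend or robust, a replicate block, each array left out and no minimum fold. The unadjusted count under every setting, the ATF4 split and the motifs besides TGATGNAA were added after the data were seen.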

Additional observations from a re-analysis of the deposited data

How the results depend on the processing

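No synthetase passed the adjusted limma test in the main analysis or in any of 13 other settings, while 8 were at an unadjusted p under 0.05. Without a minimum fold the second rule took 8 lower. That unadjusted count was 7 to 9 under the filters, quantile normalization, centring, gene-level and all-row fits and trend or robust eBayes. With the replicate block it was 5. Leaving out arrays in turn gave 1 to 12 lower and 0 to 1 higher, and 0 to 1 lower with the 1.5-fold minimum.

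The cytosolic median was -0.195 in the gene-level fit, which leaves out the Aars probe set, and ran from -0.245 to -0.165 with single arrays left out. The mitochondrial median was -0.05 with the filter at the median and with centring, and ran from -0.105 to -0.06. The cytosolic minus mitochondrial median ran from -0.185 to -0.10, the known ATF4 targets from -0.36 to -0.29 and the other cytosolic genes from -0.10 to -0.01.

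Under centring, which moves the median of all probe sets to 0, 27 of 37 members were lower, against 29. Signs turned for members near 0. Quantile normalization gave 0.0619 for the brighter Iars probe set, 0.0625 for Rars and -0.00625 for Vars2, and centring gave 0.015 for Hars. With single arrays left out, the ranges were -0.175 to 0.055 for Cars, -0.125 to 0.065 for Farsa, -0.07 to 0.09 for Farsb and -0.115 to 0.095 for Hars. They were -0.295 to 0.215 for Iars, -0.125 to 0.025 for Sars2, -0.10 to 0.35 for Vars, -0.095 to 0.125 for Vars2 and -0.21 to 0.16 for Yars2. The cause was not tested. A group left with 1 array was assumed to vary like the other.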
